A study of Mus musculus with 9 samples.

Results

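Genes of fatty acid oxidation and ketone body metabolism were followed in mouse distal small intestine through 34 genes, those of 35 chosen symbols that have a probe set of their own, out of 18193 genes named on the arrays. A member was taken where the platform annotation gives a probe set exactly 1 of the chosen symbols, which gave 64 probe sets. Of these, 60 were bright enough to be tested and 4 were not, and each of the 34 genes had at least 1 tested probe set. The set holds 20 mitochondrial enzymes and carriers, 10 peroxisomal genes, Crat, which works in both compartments, and 3 regulators. Apart from Crat, each enzyme was counted in 1 compartment, and whether any, such as Eci2, also serves the other was not tested. Acsl1, the other chosen symbol, was not analysed here, and 3 probe sets that the annotation shares between a member and another gene were left out.

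The 9 arrays, 3 in each of 3 groups, measured messenger RNA of whole gut wall. Every mouse carried Bacteroides thetaiotaomicron, a gut commensal, given 10 days earlier, and pieces 10, 11, 12 and 14 of a gut cut into 16 were pooled for each RNA sample. One group, Rag1, is named for the recombinase gene without which mature B and T lymphocytes do not form. A further group shares that source label, Rag 1, and is told apart by the letters BP, whose meaning is not given. The B6 group is labelled wildtype. No allele, age, sex or batch is labelled. Nor is it stated that the 3 arrays of a group are 3 mice, so that p-values here speak of spread among arrays, which may be technical.

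Fatty acids are burned in mitochondria and in peroxisomes by the same cycle of oxidation, hydration, oxidation and thiolytic cleavage, with different enzymes for each compartment. Long chains enter mitochondria on carnitine, and Cpt1a makes the acylcarnitine at the outer membrane, the controlled step. Peroxisomes shorten very long and branched chains and hand the products on, and many enzymes of both compartments are under the control of Ppara, a nuclear receptor that binds fatty acids. In the small intestine many of these genes are expressed in absorptive enterocytes, which take up dietary fat. Which cells of the gut wall gave the members' signal here was not tested.

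The arrays differed in RNA quality, read from actin control probes at both transcript ends: the 3'/5' ratio rises as RNA breaks down. It ran from 1.53 to 1.77 for Rag1, stood at 14.2, 2.43 and 20.2 for BP replicates 1 to 3, and ran from 1.76 to 4.17 for B6. Every BP array lay above every Rag1 array, so a fit with this ratio as a covariate cannot part RNA quality from group. Its slope rests mainly on BP replicate 2 against BP replicates 1 and 3. Within groups, the members' median SD (log2) was 0.20 in Rag1, 0.29 in BP and 0.14 in B6. BP replicate 2 alone had a strong Dap control signal (1019 on its 3' probe set, against at most 19.1 elsewhere). Signal of Xist, the RNA that silences an X chromosome in females, was 5.84 to 24.1 in Rag1 and 1086 to 1539 in B6. In BP it was 36.0, 624 and 1735 (replicates 1 to 3). Eif2s3y, a gene of the Y chromosome, read 44.9 to 109 in Rag1, 17.0, 3.16 and 3.34 in BP and 1.40 to 7.22 in B6. Sex and group thus cannot be told apart between B6 and Rag1, nor between BP replicates 2 and 3 and Rag1. BP replicate 1 lay between the Rag1 and B6 ranges for both genes. All 11 enterocyte markers were bright enough to be tested. The liver marker Alb and the fat marker Lep were among the dim, untested probe sets. Of 6 liver and pancreas markers with a probe set, 3 were tested, with BP minus Rag1 differences from -0.05 (Apob) to 1.02 (Ttr). Of 6 fat markers with a probe set, 3 were tested, from -0.35 (Fabp4) to 0.01 (Retn). None of these was called in any comparison, and Ttr was lower on every B6 array than on every BP array.

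Between BP and Rag1, 6 of the 34 members passed the test, 4 higher and 2 lower in BP. Acaa1b and Eci2, both peroxisomal, the mitochondrial thiolase Acaa2 and the regulator Pdk4 were higher, while Cpt1a and Echs1, both mitochondrial, were lower. The test was limma on normalized log2 intensities with Benjamini-Hochberg adjustment over 27022 probe sets and a threshold of 0.05. Of all 13570 tested genes, 3.26% passed it in this comparison, 149 higher and 294 lower in BP. That split moves with the scaling: over all probe sets called, 29.0% were higher, against 13.0% with median centring and 16.9% on the values as deposited. The members called were 4 higher and 2 lower, 3 and 3 with median centring, 1 and 2 as deposited, and 8 and 0 with the actin ratio as a covariate. The count of members rests on individual arrays, being 15 without BP replicate 2, 3 without BP replicate 1 or without B6 replicate 3, 1 without BP replicate 3 or without Rag1 replicate 3, and 0 without Rag1 replicate 1 or without Rag1 replicate 2. Fitted without the B6 arrays, 1 member passed, Cpt1a (adjusted p = 0.0407), and Acaa1b missed (0.0516). With no intensity trend in the fit, 3 passed, Acaa1b, Echs1 and Pdk4, while Eci2, Cpt1a and Acaa2 did not. Each of the 6 named genes passed both without BP replicate 2 and with BP replicate 2 as the only BP array. Those fits called 19.6% and 22.1% of all tested probe sets, against 3.80% over all arrays, and the latter has a single BP array, assumed to vary like the others. In pieces of whole gut, fewer cells of a type and less RNA per cell cannot be told apart. The chart of intensities shows these 6 genes array by array.

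**Figure D1:**
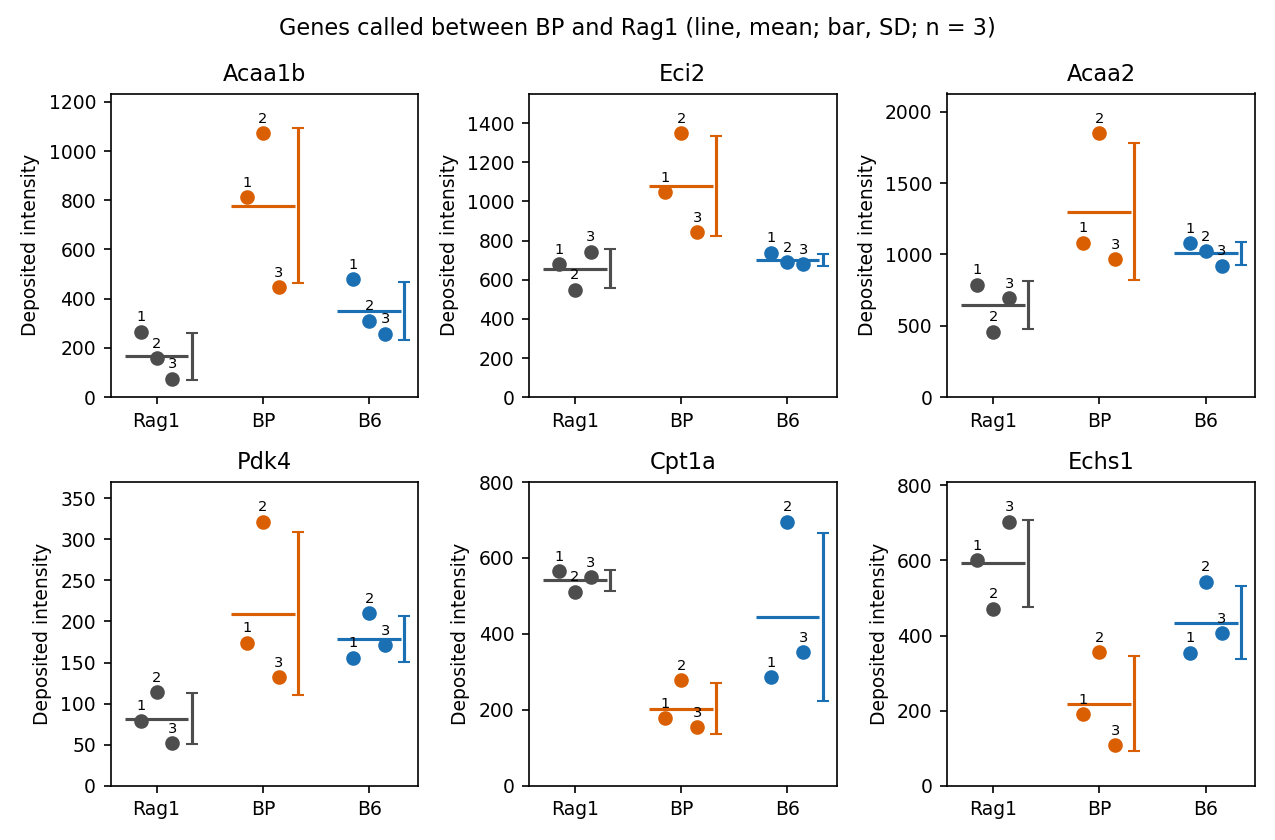
Deposited intensity (y axis, from 0) of the 6 members that passed the test between BP and Rag1, by group (x axis), brightest tested probe set of each gene. Points are arrays with their replicate number, lines are means and bars are SD over 3 arrays: the BP arrays lie above all Rag1 arrays for Acaa1b, Eci2, Acaa2 and Pdk4 and below them for Cpt1a and Echs1.

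Because several enzymes of this pathway are textbook targets of nuclear receptors that bind copies of the hexamer AGGTCA, the 250 bases before the annotated start of the called members are shown for reading beside their values. They are given 5' to 3' on the gene's strand, from RefSeq, build GRCm38.p6, in lower case, with capitals marking AGGTCA on either strand.
Cpt1a, chr19:3323051-3323300, plus strand: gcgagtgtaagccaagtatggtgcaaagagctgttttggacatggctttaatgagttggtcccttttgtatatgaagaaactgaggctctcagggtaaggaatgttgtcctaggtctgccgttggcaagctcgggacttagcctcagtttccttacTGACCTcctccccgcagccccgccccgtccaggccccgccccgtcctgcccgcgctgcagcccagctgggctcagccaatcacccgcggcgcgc
Echs1, chr7:140116422-140116671, minus strand: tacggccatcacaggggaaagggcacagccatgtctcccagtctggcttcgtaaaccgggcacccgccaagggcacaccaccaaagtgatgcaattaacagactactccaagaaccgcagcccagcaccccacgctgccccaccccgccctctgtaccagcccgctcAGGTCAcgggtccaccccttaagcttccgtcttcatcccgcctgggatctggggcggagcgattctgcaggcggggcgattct
Acaa1b, chr9:119157094-119157343, minus strand: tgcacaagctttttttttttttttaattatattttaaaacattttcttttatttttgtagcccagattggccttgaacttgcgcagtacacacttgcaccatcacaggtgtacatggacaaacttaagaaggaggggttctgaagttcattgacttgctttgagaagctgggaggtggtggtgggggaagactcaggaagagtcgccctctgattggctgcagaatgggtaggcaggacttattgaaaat
Eci2, chr13:34994145-34994394, minus strand: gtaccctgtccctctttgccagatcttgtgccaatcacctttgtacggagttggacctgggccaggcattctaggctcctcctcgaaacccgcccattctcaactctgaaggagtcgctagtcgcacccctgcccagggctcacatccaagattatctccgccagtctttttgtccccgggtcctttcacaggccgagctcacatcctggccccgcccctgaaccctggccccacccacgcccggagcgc
Pdk4, chr6:5496279-5496528, minus strand: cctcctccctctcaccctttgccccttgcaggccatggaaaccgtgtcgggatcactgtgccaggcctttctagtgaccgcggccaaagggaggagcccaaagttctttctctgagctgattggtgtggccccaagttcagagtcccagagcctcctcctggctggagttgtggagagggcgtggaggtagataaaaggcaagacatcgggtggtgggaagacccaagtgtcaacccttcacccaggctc

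The search for AGGTCA, on both strands and in a window from 250 bases before to 50 bases after each start, found it for 5 of 30 members with a window (Acadm, Acadvl, Acot4, Cpt1a and Echs1), or 16.7%, against 18.1% of 27025 genes. The Cpt1a match lies on the reverse strand, its first base 94 bases before the start, and the Echs1 match on the forward strand, 83 bases before the start. The 3 windows of the members higher in BP (Acaa1b, Eci2 and Pdk4) hold no such hexamer. With a share of 18.1% over all genes, so few windows cannot part higher from lower members, and sequence outside the windows was not searched. A pair of AGGTCA copies spaced by 1 base was in 0 of 33 member windows and 13 of 32851 windows in all. The looser pair of AGGNCA copies with the same spacing, which includes it, with N for any base, was in 0 and 125 (0.381%). Acaa2, Acat1, Crat, Decr1 and Hsd17b4 were not in the table.

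Carnitine shuttle genes come before the cycle itself. Cpt1a, by its brightest probe set, read 565, 511 and 549 on Rag1 replicates 1, 2 and 3, 177, 278 and 153 on the BP arrays, and 285, 696 and 352 on the B6 arrays. All BP arrays lay below all Rag1 arrays, and the B6 arrays ran from below to above the Rag1 range. The group means on the normalized log2 scale were 9.08 ± 0.04 for Rag1, 7.78 ± 0.16 for BP and 8.76 ± 0.62 for B6 (SD, n = 3). BP was 2.46-fold lower than Rag1, a log2 difference of -1.30 ± 0.28 (SE, as for every difference from here on; adjusted p = 0.0296), and B6 differed from Rag1 by -0.32 ± 0.28, with a 95% interval of -0.92 to 0.28.

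The Cpt1a call between BP and Rag1 was lost without any of the 3 Rag1 arrays (adjusted p 0.0913 to 0.132), without BP replicate 1 (0.0612), without BP replicate 3 (0.0817) and without B6 replicate 3 (0.0526). With the actin ratio as a covariate the difference was -0.83 ± 0.34 (adjusted p = 0.118), and with BP replicate 2 as the only BP array it was -1.14 ± 0.34 (adjusted p = 0.0333). The dimmer Cpt1a probe sets did not show it. Probe set 1434866_x_at read 96.2, 96.9 and 112 on Rag1, 90.4, 229.9 and 83.7 on BP and 87.3, 134 and 88.5 on B6. Probe set 1438156_x_at read 20.0, 18.9 and 13.3 on Rag1, 33.8, 138 and 21.7 on BP and 15.5, 37.5 and 3.10 on B6. BP replicate 2 was the highest array on both, and their BP minus Rag1 differences were 0.38 ± 0.27 and 0.95 ± 0.46, opposite in sign to the brightest probe set. Averaged over the 3 probe sets, the Cpt1a difference was 0.01 ± 0.29 (adjusted p = 0.991).

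The other shuttle members did not pass in any comparison. Cpt2, which returns the chain to coenzyme A inside mitochondria, read 793 to 835 on Rag1, 632 to 1061 on BP and 962 to 1159.9 on B6, all B6 arrays above all Rag1 arrays (B6 minus Rag1 0.38 ± 0.16, adjusted p = 0.856). Slc25a20, the carrier in the inner membrane, spread most within BP, at 2695, 1400.1 and 2204, against 1789 to 2012 on Rag1 and 1903 to 2024 on B6. Its dimmer probe set turned the order of the BP arrays round, at 235, 835 and 189.5. Crat, which moves acetyl groups onto carnitine, read 227 to 307 on Rag1, 158 to 372 on BP and 322 to 372 on B6 (B6 minus Rag1 0.46 ± 0.24, adjusted p = 0.980). Its dimmer probe set 1441919_x_at was higher on all BP and B6 arrays than on all Rag1 arrays without passing. There BP minus Rag1 was 0.78 ± 0.25 (adjusted p = 0.1115).

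In the mitochondrial cycle, Echs1, the hydratase for short chains, read 601, 471 and 704 on Rag1, 189.9, 356 and 108 on BP and 354, 543 and 407 on B6. All BP arrays lay below all Rag1 arrays, with B6 between them, overlapping both as deposited and lying above all BP arrays after normalization. The log2 means were 9.19 ± 0.20, 7.77 ± 0.57 and 8.80 ± 0.29 (SD, n = 3), and BP was 2.67-fold lower than Rag1 (-1.42 ± 0.28, adjusted p = 0.0245). The call was lost without any of the 3 Rag1 arrays (adjusted p 0.0882 to 0.115) and without BP replicate 3 (0.0643). With the actin ratio as a covariate the difference was -0.67 ± 0.28 (adjusted p = 0.131), less than when BP replicate 2 was the only BP array (-0.90 ± 0.24, adjusted p = 0.0204). B6 differed from Rag1 by -0.39 ± 0.28 (95% interval -1.01 to 0.23).

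Acaa2, the thiolase that closes each turn of the mitochondrial cycle, had 788, 460.1 and 694 on Rag1, 1081, 1850.3 and 968 on BP and 1081, 1021 and 922 on B6 by probe set 1428146_s_at. Every BP and every B6 array lay above every Rag1 array. The log2 means were 9.30 ± 0.33, 10.34 ± 0.28 and 9.99 ± 0.12 (SD, n = 3). BP was 2.04-fold higher than Rag1 (1.03 ± 0.21, adjusted p = 0.0250), and B6 was 0.68 ± 0.21 higher but did not pass (adjusted p = 0.468). The BP call was lost without any of the 3 Rag1 arrays (adjusted p 0.0757 to 0.109), without BP replicate 3 (0.0549) and on the values as deposited (0.0774). Without BP replicate 2, the B6 difference passed (adjusted p = 0.0487).

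The other Acaa2 probe sets went another way. Probe set 1428145_at read 671, 466 and 589 on Rag1, 449.7, 745 and 369.8 on BP and 669, 856 and 596 on B6. Probe set 1455061_a_at read 222, 136 and 173 on Rag1, 25.6, 306 and 24.6 on BP and 88.8, 222 and 87.9 on B6, with BP replicates 1 and 3 far below BP replicate 2. Their BP minus Rag1 differences were -0.11 ± 0.21 and -1.18 ± 0.60, and the mean over the 3 probe sets gave -0.08 ± 0.31 (adjusted p = 0.923).

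The 4 acyl-CoA dehydrogenases, which start each turn and divide the substrates by chain length, did not move as a block. Acadvl, for very long chains, read 1132, 1002 and 975 on Rag1, 1499, 1499.9 and 1487 on BP and 1376, 1502 and 1217 on B6, with no overlap of Rag1 with either group (BP minus Rag1 0.55 ± 0.17, adjusted p = 0.0902; B6 minus Rag1 0.38 ± 0.17, adjusted p = 0.859). Acadm, for medium chains, differed by -0.34 ± 0.14 between BP and Rag1 (adjusted p = 0.194) and by -0.18 ± 0.14 between B6 and Rag1. Acads, for short chains, differed by -0.29 ± 0.20 and 0.19 ± 0.20. Acadl, for long chains, was high on BP replicate 2 alone, at 1566 against 567 to 905 on the other 8 arrays.

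Hadha and Hadhb encode the subunits of the trifunctional protein, which carries out the remaining steps on long chains. Their genes are transcribed away from each other, with 273 bases between the annotated starts, so their windows share 228 bases. The 250 bases before the Hadhb start, which hold that stretch and no AGGTCA, are given as above because it lies before both genes.
Hadhb, chr5:30155003-30155252, plus strand: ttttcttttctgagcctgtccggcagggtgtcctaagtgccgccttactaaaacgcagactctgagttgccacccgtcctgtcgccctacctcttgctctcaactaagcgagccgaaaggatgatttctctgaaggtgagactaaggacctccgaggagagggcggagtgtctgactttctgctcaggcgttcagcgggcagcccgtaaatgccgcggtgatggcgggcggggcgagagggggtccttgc
Hadha read 1406, 1549 and 1258 on Rag1, 793, 1199.7 and 573 on BP and 1332, 1665 and 1229.9 on B6, with all BP arrays the lowest. The BP minus Rag1 difference was -0.72 ± 0.20 (adjusted p = 0.0700). It passed with the replicate number as a block (0.0403), with median centring (0.0495), with array weights (0.00764) and without BP replicate 2 (0.00415), and was -0.28 ± 0.22 with the actin ratio as a covariate (0.453). B6 minus Rag1 was 0.00 ± 0.20 (95% interval -0.44 to 0.44). Hadhb overlapped between BP and Rag1, at 1439, 1905 and 1223 against 1889, 1558 and 1632, a difference of -0.12 ± 0.15 (95% interval -0.45 to 0.21). Its dimmer probe set 1437172_x_at read 2996 on BP replicate 2 and 428 to 776 on the other 8 arrays. Hadh, the dehydrogenase for short chains, varied little by its brightest probe set, at 6422 to 6859 on Rag1, 6741 to 7395 on BP and 6787 to 7535 on B6. Its dimmest, 1436756_x_at, ran from 11.0 on Rag1 replicate 3 to 117 on B6 replicate 2.

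Auxiliary enzymes deal with double bonds and free coenzyme A. Decr1, a dienoyl-CoA reductase, read 799, 590.2 and 740.3 on Rag1, 885, 1299 and 1003 on BP and 973, 798 and 907 on B6, BP above Rag1 on every array without passing (0.62 ± 0.16, adjusted p = 0.0594). Its dimmer probe set 1449443_at overlapped, at 194, 174 and 167 on Rag1 and 248, 128 and 200 on BP (0.16 ± 0.32). Eci1, an isomerase, differed by 0.08 ± 0.18 in BP and 0.28 ± 0.18 in B6. Acot2, a thioesterase, read 122, 124 and 86.2 on Rag1, 208, 125 and 122 on BP and 106, 114 and 126 on B6, so that BP replicate 1 alone stood out. The electron transfer members take electrons from the dehydrogenases to the respiratory chain. Etfa differed by -0.40 ± 0.18 between BP and Rag1 (adjusted p = 0.238) and Etfb by -0.03 ± 0.16. Etfdh read 342, 298 and 351 on Rag1, 193, 1081 and 186 on BP and 253, 348 and 309.8 on B6.

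The ketone body members gave different answers by probe set. Acat1, which makes acetoacetyl-CoA, read 642, 524 and 615 on Rag1, 598, 799.9 and 589 on BP and 701, 689.5 and 774 on B6 by its brightest probe set (BP minus Rag1 0.20 ± 0.16, adjusted p = 0.523). By 1451271_a_at it read 294, 276 and 409 on Rag1, 600.2, 779 and 639.7 on BP and 526, 413 and 477 on B6, all BP arrays above the other 6. This probe set passed between BP and Rag1 (1.11 ± 0.19, adjusted p = 0.0165). The call was lost without Rag1 replicate 1 (0.0995), without Rag1 replicate 2 (0.0857) and without BP replicate 3 (0.0598). The third, 1424182_at, differed by 0.34 ± 0.21 in BP and 0.70 ± 0.21 in B6 (adjusted p = 0.476).

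Bdh1, which interconverts acetoacetate and hydroxybutyrate, read 777, 810.0 and 1039.7 on Rag1, 705, 981 and 637 on BP and 880.0, 869 and 893 on B6 by its brightest probe set (BP minus Rag1 -0.13 ± 0.16). By 1426959_at it read 113, 90.5 and 99.4 on Rag1, 13.3, 55.6 and 20.9 on BP and 27.0, 81.2 and 22.6 on B6, every Rag1 array above the other 6, and the 4 arrays with the highest actin ratios the lowest. That probe set passed as lower in BP (-1.44 ± 0.34, adjusted p = 0.0437). The call was lost without any of the 3 Rag1 arrays (adjusted p 0.124 to 0.168), on the values as deposited (0.0835), without BP replicate 1 (0.0930) or 3 (0.102) and without B6 replicate 1 (0.0702) or 3 (0.0598), and the difference was -0.62 ± 0.43 with the actin ratio as a covariate (adjusted p = 0.371). With these 2, 8 of the 60 tested member probe sets passed between BP and Rag1, 5 higher and 3 lower, which is 13.3%, against 3.80% of all tested probe sets.

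**Figure D2:**
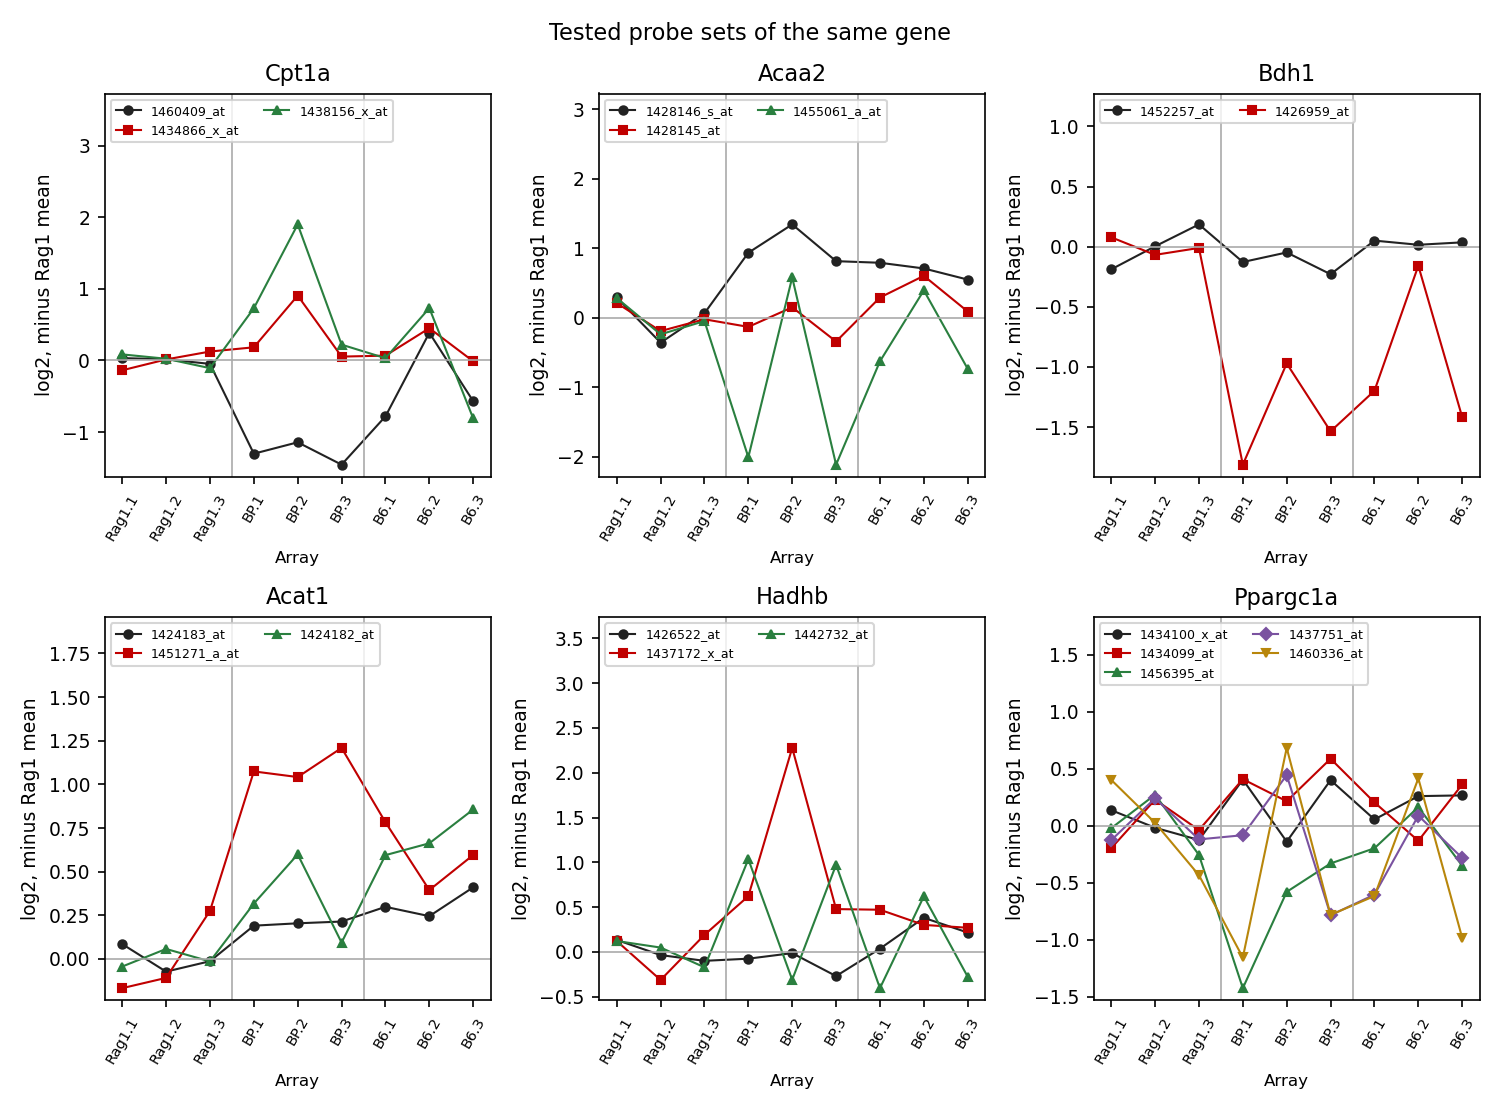
Normalized log2 intensity minus the mean of the 3 Rag1 arrays (y axis, a separate scale in each panel) on each array (x axis) for every tested probe set of 6 members. Lines join the arrays of a probe set and vertical lines part the groups: for Cpt1a on all BP arrays, and for Acaa2 on BP replicates 1 and 3, probe sets lie on both sides of the Rag1 mean, and for Bdh1 1 of 2 probe sets is low on BP.

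Among the 16 members with several tested probe sets, 8 had BP minus Rag1 differences of both signs (50%), against 60.3% of 5680 genes. For B6 minus Rag1 it was 7 (43.8%, against 53.4%), and for B6 minus BP 13 (81.2%, against 59.5%). Cpt1a and Acaa2 had probe sets beyond 0.5 in both directions, as did 479 of the 5680 genes. A probe set of the Affymetrix design reads a stretch near the 3' end of a transcript, so probe sets of a gene can read different ends or isoforms, and which of them stands for the gene was not tested.

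In peroxisomes, Acaa1b, a thiolase that cleaves the shortened chain, had the largest difference of the 34 members in both comparisons with Rag1. Its intensity was 265, 159 and 74.5 on Rag1, 813, 1073 and 447 on BP and 480.4, 311 and 258 on B6. All BP arrays lay above all Rag1 arrays, and the lowest B6 array lay just under the highest Rag1 array before normalization and above it after. The log2 means were 7.30 ± 0.80, 9.58 ± 0.45 and 8.47 ± 0.46 (SD, n = 3). BP was 4.83-fold higher than Rag1 (2.27 ± 0.39, adjusted p = 0.0151), and B6 was 2.25-fold higher without passing (1.17 ± 0.39, adjusted p = 0.583). The call was lost without Rag1 replicate 1 (adjusted p = 0.0520) or 2 (0.0744) and held with the actin ratio as a covariate (2.69 ± 0.52, adjusted p = 0.00532).

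Acaa1a, the closely related thiolase A, read 1428, 1618 and 1265 on Rag1, 2632, 2143 and 2746 on BP and 2339, 1494 and 2145 on B6. Its BP arrays were all above Rag1, and the difference of 0.85 ± 0.22 did not pass (adjusted p = 0.0591). Its dimmer probe set 1456011_x_at read 40.02, 56.5 and 46.8 on Rag1 and 15.6, 177 and 110.4 on BP. Since Acaa1a and Acaa1b are near copies, how their transcripts divide between these probe sets is uncertain.

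Eci2, an isomerase for unsaturated chains, read 679, 549 and 742 on Rag1, 1047, 1349 and 842 on BP and 738, 688 and 679.9 on B6, so BP stood above both other groups. The log2 means were 9.36 ± 0.13, 10.10 ± 0.15 and 9.49 ± 0.08 (SD, n = 3). BP was 1.67-fold higher than Rag1 (0.74 ± 0.16, adjusted p = 0.0330), and B6 differed from Rag1 by 0.13 ± 0.16 (95% interval -0.22 to 0.48). The call passed without BP replicate 2 or B6 replicate 2 and was lost without each of the other 7 arrays in turn (adjusted p 0.0612 to 0.138). It was also lost with median centring (0.0855), on the values as deposited (0.0917) and with the replicate number as a block (0.0538), where the difference was 0.66 to 0.74.

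The remaining 7 peroxisomal members did not pass between BP and Rag1, and 5 of them followed BP replicate 2. Ehhadh, the bifunctional enzyme of the straight-chain path, read 213, 130.3 and 164 on Rag1, 121, 675 and 97.5 on BP and 175, 226 and 183 on B6. Crot, which puts medium chains on carnitine for export, read 583, 425 and 315 on Rag1, 248, 879.9 and 137 on BP and 320.2, 369 and 368 on B6. Decr2, a dienoyl-CoA reductase, had 185, 143 and 103 on Rag1, 32.5, 209 and 27.4 on BP and 70.6, 178 and 83.5 on B6. As deposited, in these 3 genes BP replicate 2 lay above every Rag1 array and BP replicates 1 and 3 below every Rag1 array. After normalization, Ehhadh on BP replicate 1 lay within the Rag1 range. Acot4, a thioesterase, read 31.3, 36.9 and 45.5 on Rag1, 46.7, 178 and 16.8 on BP and 18.2, 21.8 and 32.3 on B6. Its dimmer probe set 1422076_at differed from Rag1 by 0.08 ± 0.29 in BP and 0.72 ± 0.29 in B6, against -0.32 ± 0.46 in B6 by the brightest. Acox2, the oxidase for branched chains and bile acid intermediates, read 52.9, 18.1 and 55.0 on Rag1 and 24.2, 174 and 70.0 on BP.

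The BP minus Rag1 difference of these genes turned on that array. Ehhadh was 0.41 ± 0.45 over all arrays, -0.26 without BP replicate 2 and 1.98 with the actin ratio as a covariate. Decr2 was -0.96 ± 0.48, -1.61 without BP replicate 2 and 0.75 with the covariate. Etfdh of the mitochondrial list behaved alike, at 0.16 ± 0.43, -0.50 and 1.64 in the same order. BP replicate 2 had the lowest actin ratio of the BP arrays, and the part of RNA shortening in these values beyond this covariate was not tested. Hsd17b4, the D-bifunctional protein, differed by 0.38 ± 0.19 in BP and 0.51 ± 0.19 in B6 (adjusted p = 0.719), and Pex11a, which takes part in peroxisome division, by 0.43 ± 0.22 and 0.20 ± 0.22. Dimmer probe sets gave 0.79 ± 0.26 and 0.41 ± 0.26 for Hsd17b4 and -0.06 ± 0.23 and 0.21 ± 0.23 for Pex11a, in the same order.

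**Figure D3:**
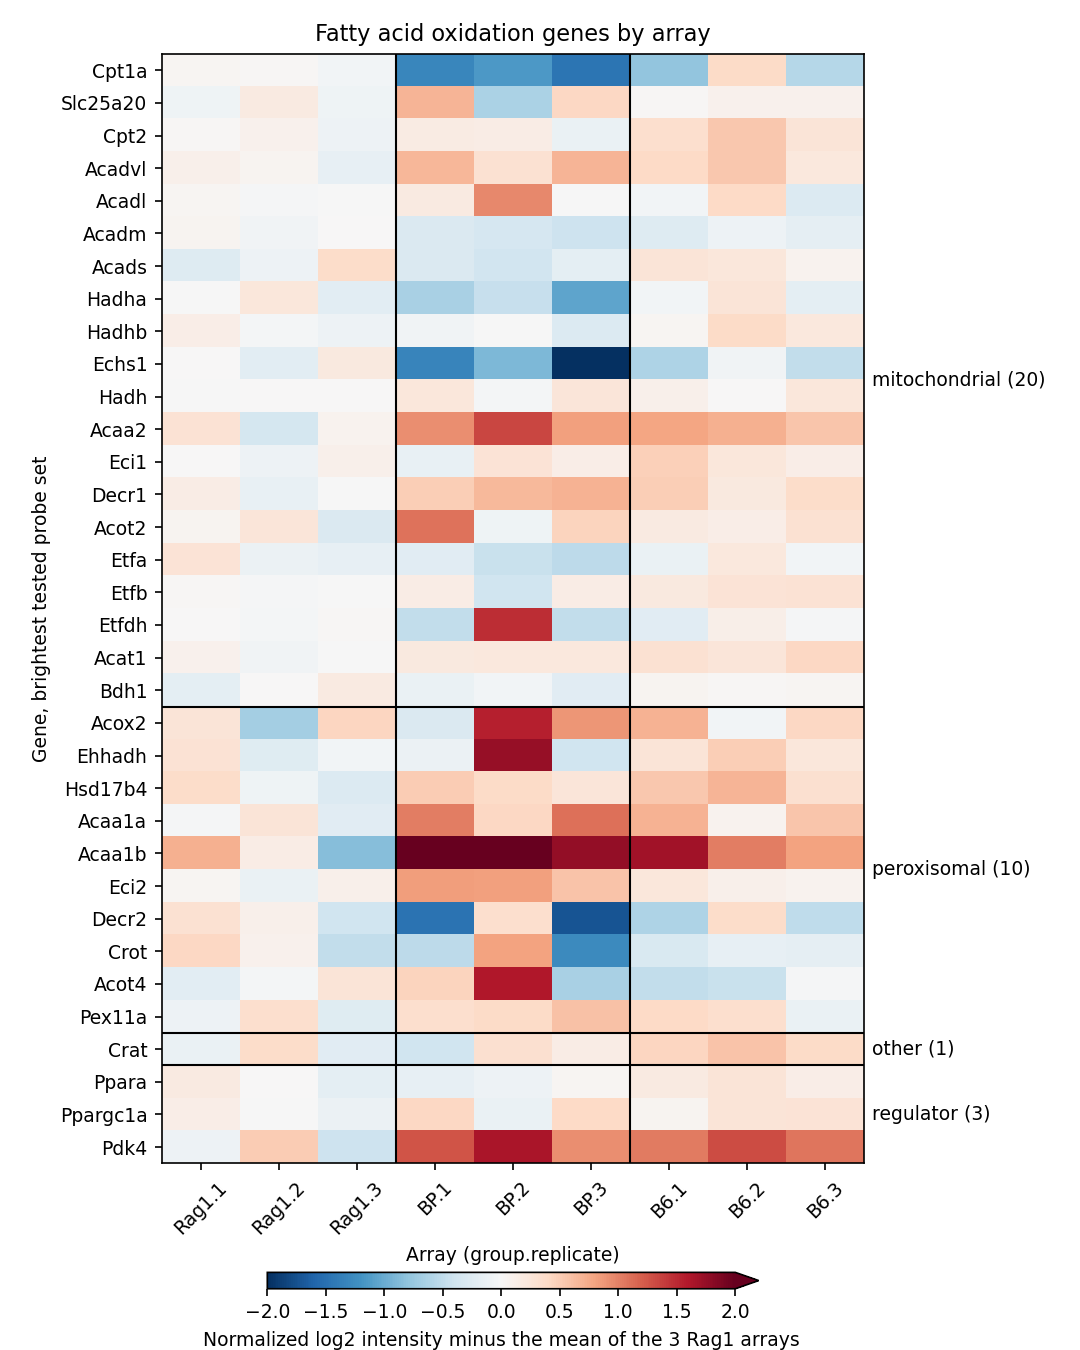
Normalized log2 intensity of the 34 members (rows, brightest tested probe set) on the 9 arrays (columns) minus the mean of the 3 Rag1 arrays, red above and blue below, with the scale ending at 2 in both directions. Acaa1b and Pdk4 are red on all BP and B6 arrays, Cpt1a and Echs1 are blue on all BP arrays, and Etfdh, Ehhadh and Crot are red on BP replicate 2 and blue on BP replicates 1 and 3.

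Of the regulators, Ppara read 512, 416 and 406 on Rag1, 334, 475 and 371 on BP and 472, 515 and 475 on B6, with the groups overlapping. Its differences were -0.07 ± 0.18 in BP (95% interval -0.46 to 0.31) and 0.19 ± 0.18 in B6 (-0.20 to 0.58). Ppargc1a, a coactivator that drives mitochondrial genes, read 185, 147 and 148 on Rag1, 177, 169 and 171 on BP and 143, 185 and 182 on B6. Its 5 probe sets ran from -0.78 ± 0.30 (1456395_at, adjusted p = 0.179) to 0.41 ± 0.23 (1434099_at) between BP and Rag1.

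Pdk4, the kinase that shuts pyruvate out of the citric acid cycle and so favours fat as fuel, was higher in both groups. It read 78.9, 114 and 51.96 on Rag1, 174, 322 and 132 on BP and 156, 209.8 and 171 on B6, with every BP and B6 array above every Rag1 array. The log2 means were 6.50 ± 0.47, 7.78 ± 0.35 and 7.63 ± 0.15 (SD, n = 3). BP was 2.42-fold higher (1.28 ± 0.28, adjusted p = 0.0330). B6 was 2.19-fold higher, at 1.13 ± 0.28, and did not pass (adjusted p = 0.252). The BP call was lost without any of the 3 Rag1 arrays (adjusted p 0.0631 to 0.145), without BP replicate 1 (0.0632) or 3 (0.0568) and without B6 replicate 1 (0.0612) or 3 (0.0621). The BP call was also lost on the values as deposited (0.0870). The B6 difference passed without BP replicate 2 (adjusted p = 0.0261) and when only B6 and Rag1 were fitted (adjusted p = 0.0337).

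Between B6 and Rag1, limma called 0 of the 34 members and 0.391% of all tested genes. At an unadjusted p under 0.05 there were 6 members (Cpt2, Acadvl, Acaa2, Hsd17b4, Acaa1b and Pdk4), all higher in B6, with a smallest adjusted p of 0.252. Over all 13570 tested genes, 787 had such a p, in either direction. Of the 34 members, 27 had a positive difference, and their median was 0.20 against 0.02 over all tested genes, of which 53.1% were positive. The median was 0.15 over the 20 mitochondrial genes, 16 of them positive, and 0.26 over the 10 peroxisomal genes, 7 of them positive. After normalization every B6 array lay above every Rag1 array in 11 members, against 10.5% of all tested genes, and in 1, Acadm, every B6 array lay below, against 8.43%. On the values as deposited the counts were 7 and 0, against 6.1% and 13.6% of all tested genes, with a member median of 0.14 against -0.09. The lymphocyte markers differed far more, with 4 of 7 called (Igha, Jchain, Cd3e and Cd3g) and a median of 1.81, and 0 of 11 enterocyte markers were called (median 0.03). Their part in the members' differences was not tested.

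The plot of differences sets the comparisons with Rag1 side by side. They share the 3 Rag1 arrays, so a gene that reads low on Rag1 is drawn to the right in both. Of the 6 members called in BP, Acaa1b, Acaa2 and Pdk4 had B6 differences of 1.17, 0.68 and 1.13, while Eci2, Cpt1a and Echs1 had 0.13, -0.32 and -0.39.

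**Figure D4:**
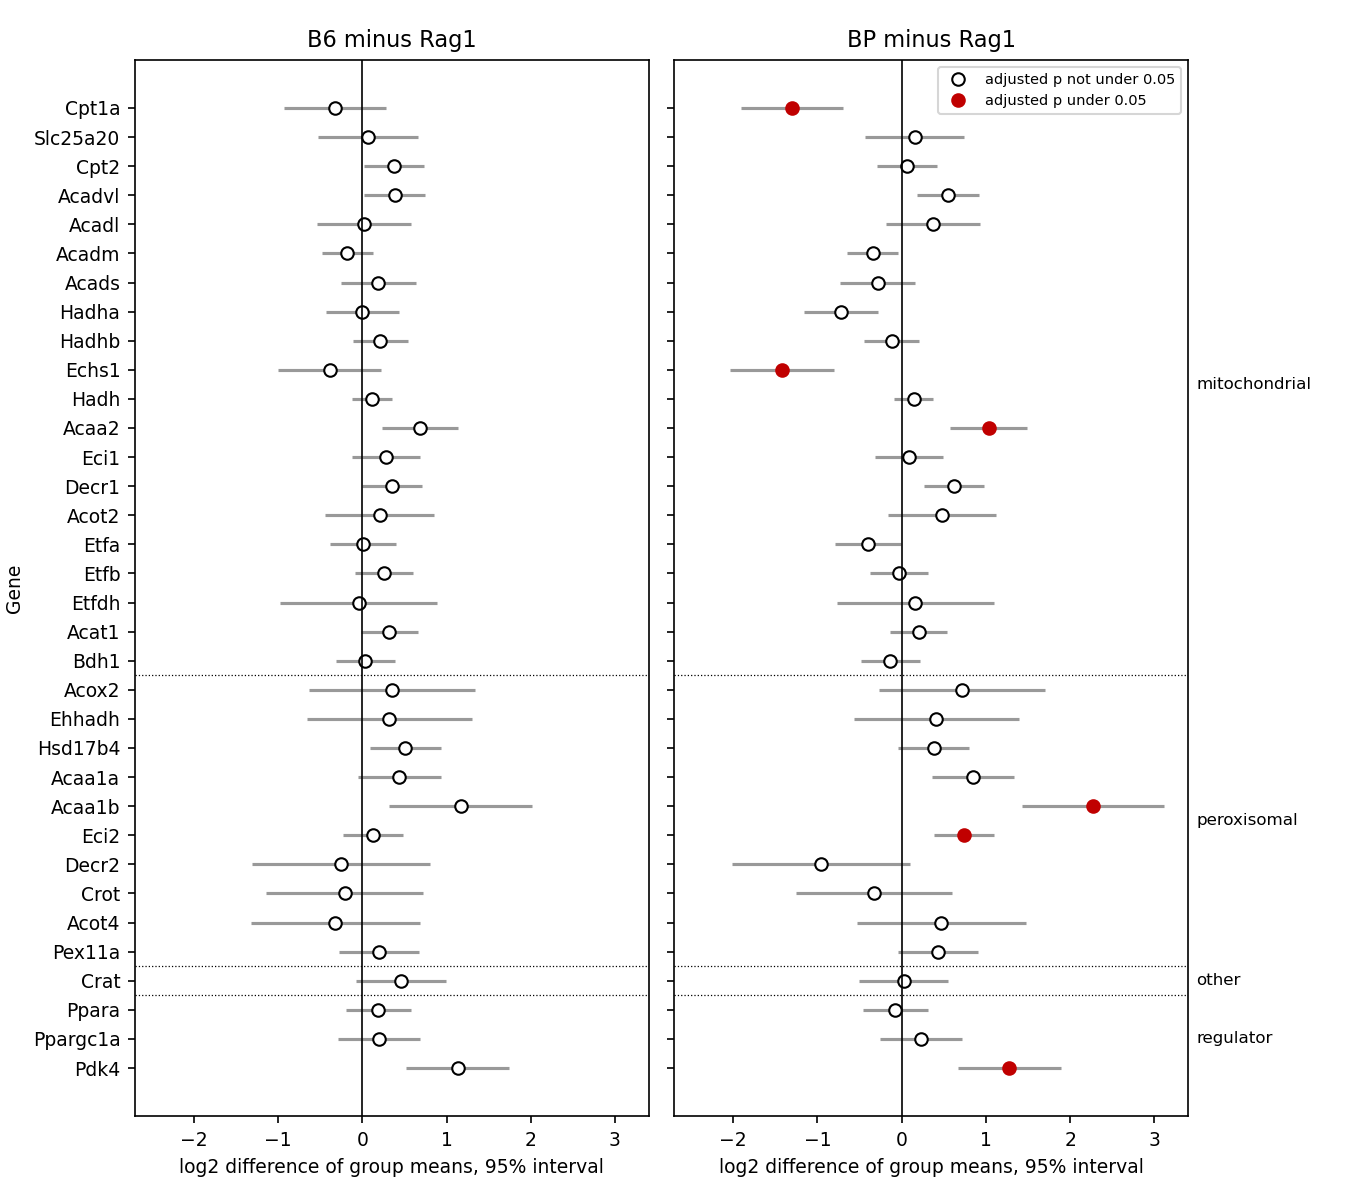
Difference of group means on the normalized log2 scale (x axis) for the 34 members (y axis), B6 minus Rag1 on the left and BP minus Rag1 on the right. Circles are estimates, lines 95% intervals and red circles members with an adjusted p under 0.05: there are 0 on the left and 6 on the right, from Echs1 at -1.42 to Acaa1b at 2.27.

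Compartments differed in their medians between BP and Rag1. The 10 peroxisomal genes had a median of 0.45, with 8 positive, 2 called higher and 0 lower. The 20 mitochondrial genes had a median of 0.07, with 11 positive, 1 called higher and 2 lower, and this median turned to -0.01 when arrays were centred on their medians. The median over all tested genes was -0.02, and -0.11 with that centring. After normalization, in 3 peroxisomal genes (Acaa1a, Acaa1b and Eci2) every BP array lay above every Rag1 array and in 0 below. Among the mitochondrial genes this held for 4 above (Acaa2, Acadvl, Acat1 and Decr1) and 5 below (Acadm, Cpt1a, Echs1, Etfa and Hadha). Over all tested genes the share was 10.0% above and 13.1% below. No test was made of the difference between compartments, since their genes are not replicates.

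By array, the peroxisomal median relative to the Rag1 mean stood at 0.39, 0.81 and 0.40 for BP replicates 1 to 3 and at 0.33, 0.22 and 0.14 on the B6 arrays. On the Rag1 arrays themselves it ran from -0.23 on replicate 3 to 0.27 on replicate 1, so the B6 values overlap Rag1 and the BP values do not. The mitochondrial median was 0.04, -0.04 and -0.07 on BP and 0.08, 0.22 and 0.11 on B6, against -0.03 to 0.03 on Rag1. With the actin ratio as a covariate the BP minus Rag1 medians were 0.94 for peroxisomal genes, with 10 of 10 positive, and -0.07 for mitochondrial genes, against -0.15 over all tested genes. With BP replicate 2 as the only BP array they were 0.80 and -0.04, and without that array 0.34, with 6 of 10 positive, and 0.00. With array weights they were 0.24, with 7 of 10 positive, and 0.01. Epcam, an epithelial marker, was lower in BP than in Rag1 (-0.47 ± 0.11, adjusted p = 0.0389), as 1 of 11 enterocyte markers called. Of these 11, 5 had a positive difference, up to Cdx2 (0.69 ± 0.34, adjusted p = 0.282), and in 6 (Anpep, Epcam, Krt19, Krt20, Lgals4 and Vil1) every BP array lay below every Rag1 array after normalization. The muscle genes Myh11 (-1.51 ± 0.25, adjusted p = 0.0134) and Des (-0.69 ± 0.17, adjusted p = 0.0485) were lower as well, 2 of 13 muscle and stroma markers. Of these 13, 3 had a positive difference, and Acta2, of smooth muscle actin, was above Rag1 on every BP array after normalization (0.35 ± 0.13, adjusted p = 0.166). By array, the enterocyte median relative to the Rag1 mean was -0.24, -0.12 and -0.18 on BP and -0.03 to 0.10 on B6. The part of these cell types in the members' values was not tested.

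**Figure D5:**
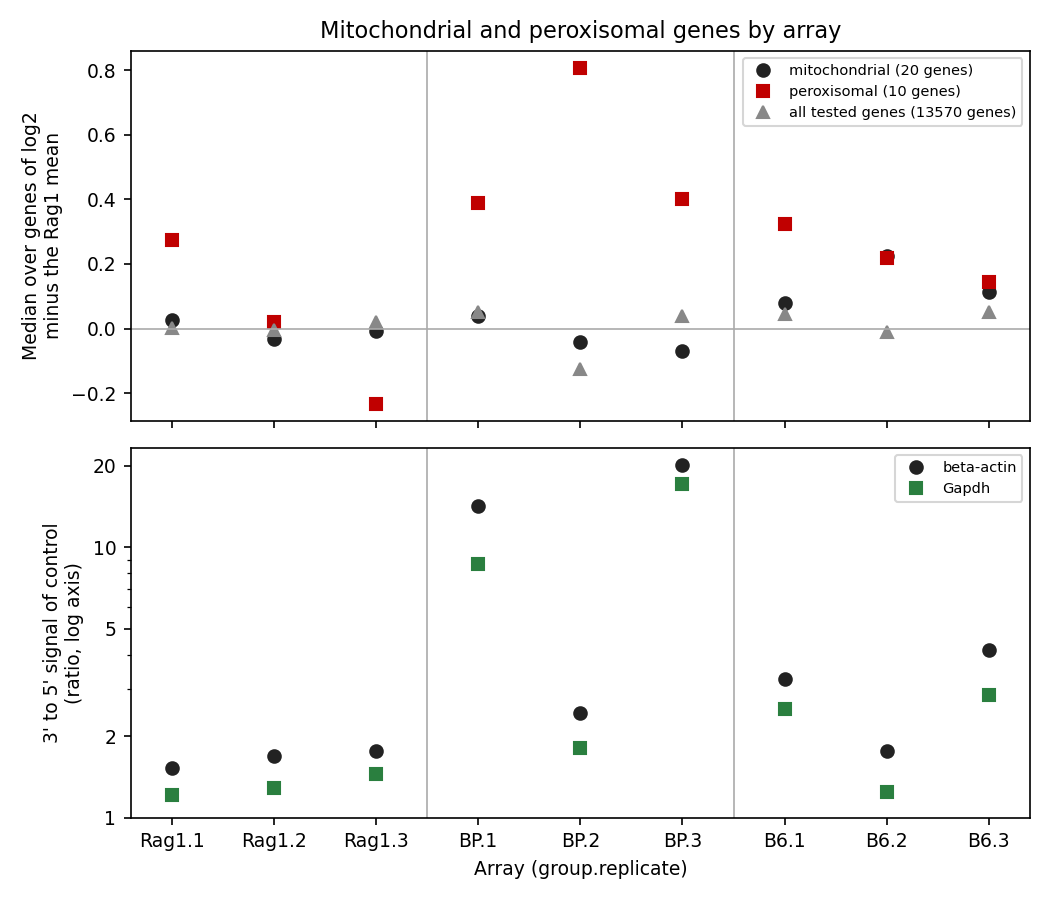
Top: median over the mitochondrial (20), peroxisomal (10) and all tested genes of the normalized log2 intensity minus the Rag1 mean, for each array. Bottom: 3'/5' ratio of the actin and Gapdh control probes, log axis. The peroxisomal median is 0.39 to 0.81 on BP, while the actin ratio is 14.2 and 20.2 on BP replicates 1 and 3 and 2.43 on BP replicate 2.

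Between B6 and BP, limma again called 0 members, against 0.582% of all tested genes, with 8 members at an unadjusted p under 0.05 and a smallest adjusted p of 0.126. Over all 13570 tested genes, 1893 had an unadjusted p under 0.05. The medians of the compartments had opposite signs. The peroxisomal median was -0.30, with 3 of 10 positive, and the mitochondrial median 0.17, with 12 of 20 positive, against 0.04 over all tested genes. Eci2 was lower in B6 than in BP on every array (-0.61 ± 0.16, 95% interval -0.96 to -0.25, adjusted p = 0.126). Echs1 and Cpt1a were higher in B6 by 1.03 ± 0.28 (interval 0.41 to 1.65) and 0.98 ± 0.28 (0.38 to 1.58), and Hadha by 0.72 ± 0.20 (0.28 to 1.16). The dimmer Cpt1a probe sets differed the other way, by -0.21 ± 0.27 and -0.97 ± 0.46, and the mean of the 3 by -0.07 ± 0.29. After normalization every B6 array lay above every BP array in 13 members, against 11.8% of all tested genes, and below in 4 (Acaa1b, Acaa2, Decr1 and Eci2), against 7.34%. The count of calls was 7 without BP replicate 2 and 8 with it as the only BP array, in fits that called 11.3% and 21.1% of all tested probe sets.

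Single arrays set many extremes. BP replicate 3 was the lowest of the 9 arrays for 13 of the 34 members (38.2%, against 15.4% of all tested genes) and Rag1 replicate 3 for 8 (23.5%, against 6.45%). B6 replicate 2 was the highest for 8 (23.5%, against 7.48%), and BP replicate 2 for 8 as well, against 19.0% of all tested genes.

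Other genes of the pathway were read from a list of 61 symbols that covers further acyl-CoA synthetases, dehydrogenases, thioesterases and peroxins. Of these, 54 had a probe set and 50 were tested. None passed in the 3 comparisons by limma (0 called, with 4, 7 and 3 at an unadjusted p under 0.05 for B6 minus Rag1, BP minus Rag1 and B6 minus BP). Their medians were 0.11, 0.16 and 0.07. Over all 13570 tested genes, 787, 2598 and 1893 had an unadjusted p under 0.05, in the same order. Acsl5, a synthetase of the enterocyte, read 5466, 5536 and 4894 on Rag1, 5284, 6022 and 5510.4 on BP and 6705, 7426 and 7191 on B6, with B6 above all other arrays (B6 minus Rag1 0.44 ± 0.11, adjusted p = 0.280). Acot1, a cytosolic thioesterase, read 27.7 to 33.2 on Rag1, 139, 58.9 and 84.1 on BP and 32.8 to 78.0 on B6 (BP minus Rag1 1.22 ± 0.39, adjusted p = 0.102). Pccb, a subunit of propionyl-CoA carboxylase, differed by -0.77 ± 0.27 (adjusted p = 0.134).

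Of 43 further Ppar targets and partners, 36 had a probe set and 34 were tested. None passed by limma in any comparison, with 9, 9 and 5 at an unadjusted p under 0.05, and their medians were -0.01, -0.13 and 0.06. Over all 13570 tested genes, 787, 2598 and 1893 had an unadjusted p under 0.05, in the same order. Ppard, a sister receptor of Ppara, read 787, 869 and 979 on Rag1, 576, 322 and 591 on BP and 635, 551 and 532 on B6, Rag1 above all other arrays (BP minus Rag1 -0.80 ± 0.30, adjusted p = 0.160). Slc27a2, a fatty acid carrier and synthetase, read 479, 471 and 234 on Rag1, 715, 743 and 690.1 on BP and 696, 696 and 715 on B6 (BP minus Rag1 0.98 ± 0.27, adjusted p = 0.0706). Rag1 replicate 3 was the lowest of the 9 arrays for Slc27a2, for Retsat (288, against 606 to 2178), for Cd36 (87.2, against 186 to 598) and for Fabp1 (2295, against 5355 to 8933), as it was for Acaa1b and Pdk4. It was the lowest for 6.45% of all tested genes, and its share over this list was not counted. The median of the 34 listed genes relative to the Rag1 mean was -0.04 on that array, against -0.01 and 0.06 on Rag1 replicates 1 and 2. Without Rag1 replicate 3, Acaa1b differed between BP and Rag1 by 1.85 and Pdk4 by 1.06 (adjusted p = 0.119). Vnn1, which hydrolyses pantetheine, went the other way in B6, at 931 to 1271 against 2009.7 to 2501 on Rag1 (-0.97 ± 0.22, adjusted p = 0.204).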

How the data were processed

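The 9 Affymetrix arrays were labelled from 20 µg of total RNA each, per the labels' protocols. Each deposited value is a linear intensity per probe set as the authors scaled it, and the software and scaling target are not given in the sources used here. The median intensity per array ran from 29.4 to 48.0, and the number of arrays limits the precision. A pseudocount of 16 was added before log2, arrays were quantile normalized, and the 40% of probe sets with the lowest mean were not tested. Fold changes are on this scale, which understates those of dim genes. limma 3.58.1 in R 4.3.3 fitted 1 model over 9 arrays with an intensity trend (6 residual degrees of freedom), adjusted over 27022 probe sets at a threshold of 0.05. A gene is read by its brightest tested probe set, and calls of dimmer ones are given as such. Members called in a comparison, the ketone body genes and the regulators are given array by array for their brightest probe sets. Only some of the members with opposed probe sets are. The pipeline was tested on simulated data. The members, lists and tests were chosen with earlier results of these data known. Alternatives covered scaling, pseudocount, dim probe sets, trend, array weights, the groups fitted, the actin ratio, probe set choice and single arrays.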

Additional observations from a re-analysis of the deposited data

How the results depend on the processing

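Members called between BP and Rag1 numbered 6, and 3 on the values as deposited, 1 with only the 2 groups compared, 3 with no intensity trend, 11 with array weights and 13 with BP replicates 1 and 3 left out, with or without the same B6 replicates. Leaving out 1 array gave 0 to 15. Between B6 and Rag1 the count of 0 became 1 with only the 2 groups, 3 with weights, 2 with the actin covariate, 1 with BP replicates 1 and 3 left out and 0 to 2 without 1 array. Between B6 and BP the 0 became 1 with median centring, 2 with weights, 7 with the covariate, 8 or 5 with BP, or BP and B6, replicates 1 and 3 left out, and 0 to 7 without 1 array. The covariate gave 8 between BP and Rag1. Averaging all probe sets of a gene turned the sign of 5 BP minus Rag1 differences. Of the called members these were Acaa2 at -0.0849 (adjusted p = 0.923) and Cpt1a at 0.00988 (adjusted p = 0.991), and the others, uncalled, were Hadhb (0.52), Ppara (0.09) and Ppargc1a (-0.14). It turned 3 for B6 minus Rag1 and 8 for B6 minus BP, none of them called.

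Over all probe sets, the count of 89 between B6 and Rag1 became 338 with only the 2 groups, 1050 with weights, 294 with the covariate, 338 and 174 in the fits without replicates 1 and 3 of BP, or of BP and B6, and 37 to 354 without 1 array. The 1027 between BP and Rag1 became 183, 4023, 4191, 5978, 6410 and 18 to 5303 in the same order, and 518 with no trend. The 171 between B6 and BP became 51, 856, 3488, 5700, 3888 and 56 to 3046, and 89 with no trend, 499 with median centring and 108 as deposited. The cause of these changes was not tested. The fit without replicates 1 and 3 of both BP and B6 was chosen after seeing the data, and a lone array is assumed to vary like the others. Median centring moved the median of all tested genes from -0.02 to -0.11 for BP minus Rag1 and from 0.04 to 0.15 for B6 minus BP. Deviations from the group mean correlated at -0.185 to 0.234 between same-numbered arrays and at -0.172 to 0.175 between differently numbered arrays. With 3 arrays a group, this cannot show whether the numbers pair the arrays. With the replicate number as a block 6, 0 and 0 members and 799, 74 and 142 probe sets were called for BP minus Rag1, B6 minus Rag1 and B6 minus BP. Hadha took the place of Eci2 among the 6.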
